A study of Mus musculus with 24 samples.

Results

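The transcripts described here belong to 9 genes of tight and adherens junctions, the belts that seal and hold epithelial cells together, followed through a time course of the mouse hepatocyte line MMH-D3. The genes are Cldn1, Cldn2, Cldn3, Cldn12, Ocln, Tjp1, Cgn, Cdh1 and Ctnnb1, of 18193 genes with a probe set of their own on the array. All probe sets that the platform annotation gives to 1 of these symbols alone were taken, which made 21 of 45037. Of these, 12 probe sets for 7 genes reached a log2 value of 5 or more on 6 or more arrays and were tested, among 18526 probe sets and 9825 genes that passed this filter. The other 9 stayed below 5 on all 24 arrays, and none of them exceeded 2.51. They were all 4 probe sets of Cldn1, all 4 of Cldn3 and 1 of the 2 of Cgn.

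Confluent MMH-D3 cells were differentiated for 14 days with 2% DMSO and then given a serum shock, a pulse of serum that sets the circadian clocks of cultured cells to a common time. RNA was taken every 2 h from 12 h to 58 h after the shock and measured on 24 arrays, with 1 array per time point. Every array therefore came from the same line and the same DMSO and serum treatment, and no untreated group was analysed here. The labels do not say whether the 24 samples were separate cultures. The p-values measure the scatter between these arrays, which may be technical in part.

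Tight junctions are built from claudins and occludin, membrane proteins whose loops meet those of the neighbouring cell, and from cytoplasmic scaffold proteins such as ZO-1 and cingulin that tie them to actin. Different claudins make the seal tighter or open pores in it, and in the liver these junctions keep bile in the canaliculi apart from blood. Adherens junctions are built around E-cadherin, whose tail binds beta-catenin, a protein that also acts in the nucleus as the effector of Wnt signalling.

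The 5 hepatocyte markers measured were present, with mean log2 values from 11.93 (Hnf4a) to 15.97 (Alb), and so were 4 bile duct markers, among them Krt19 at 15.44. None of 6 fibroblast and 5 endothelial markers passed the filter, and the mean over each of these lists stayed between 2.17 and 2.24. Of 4 macrophage markers, Cd68 (mean 6.15) and Csf1r (5.36) passed, while Ptprc and Adgre1 did not. The mean over the hepatocyte markers ranged from 13.71 to 14.28 on the arrays from 12 to 42 h and from 13.17 to 13.88 on those from 44 to 58 h. Over the 4 bile duct markers it ranged from 11.68 to 12.19 and from 11.54 to 11.99. From array to array, the median of the probe sets that passed the filter lay between 8.96 and 9.14.

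The claudins were sorted sharply by detection. Of 20 claudin genes with a probe set of their own, Cldn2 and Cldn12 passed the filter and 18 did not. Cldn2 makes a pore for cations and water, and Cldn12 is a claudin that lacks the C-terminal motif by which most others bind ZO proteins. The brightest probe set of Cldn2 ran from 13.65 to 14.18 with a median of 14.00, and that of Cldn12 from 10.17 to 10.88 with a median of 10.53.

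Cldn1 and Cldn3, sealing claudins found at hepatocyte and bile duct junctions, stayed near the bottom of the scale at all times. The lowest value of the whole table was 2.17, which 41.2% of all values shared, so that value sets only an upper limit. The brightest Cldn1 probe set lay at that value on 21 arrays and reached 2.27 at most. The brightest Cldn3 probe set ranged from 2.24 to 2.51.

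Of the 20 claudins, 17 were below 5 on all 24 arrays, and 6 of them (Cldn4, Cldn5, Cldn6, Cldn8, Cldn11 and Cldn16) held the lowest value throughout. Cldn23 was below the filter but reached 6.0, with 3 arrays at or above 5. These claudins outside the 9 genes are named after their values were seen. A value at the bottom of the scale does not show that a transcript was absent.

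**Figure D1:**
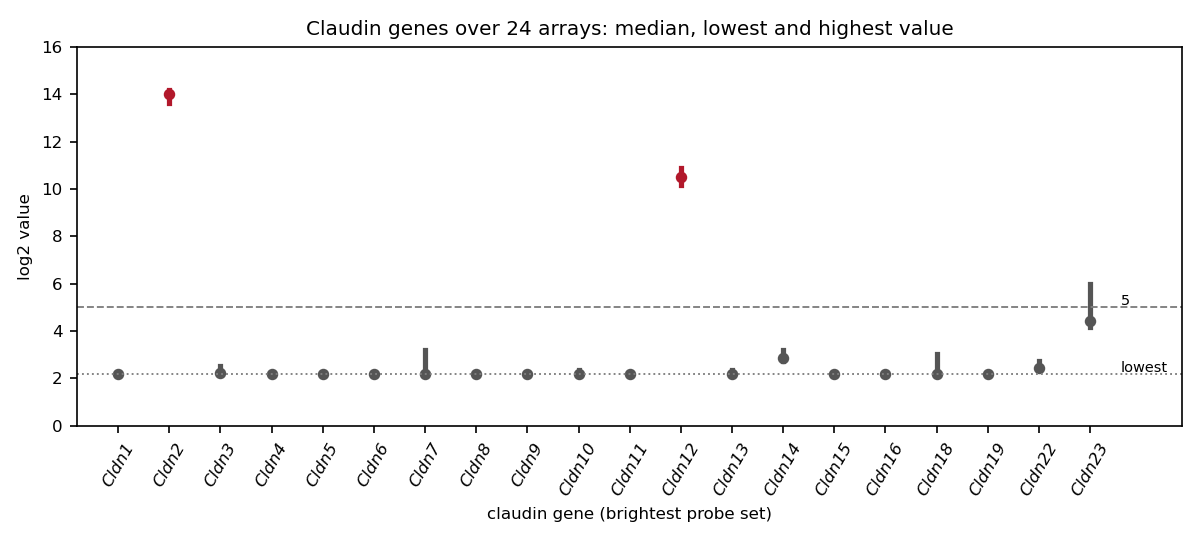
Log2 value of the brightest probe set of each of 20 claudin genes over 24 arrays (point, median; bar, lowest to highest array), with lines at the filter value of 5 and at the lowest value of the table. Cldn2 and Cldn12, in red, lie above 10 on every array, while 17 claudins lie below 5 on every array.

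The start-site sequences of these claudins are shown because Cldn2 and Cldn12 were detected and later moved in opposite directions, whereas Cldn1 and Cldn3 were at the bottom of the scale. Each line gives 120 bases up to the annotated start, from RefSeq on GRCm38.p6, 5′ to 3′ on the gene's strand. Capitals mark matches, on either strand, to any of 6 motifs: the Snail and Slug E-box (CAGGTG), the clock E-box (CACGTG), the amino acid response element (TGATGNAAT), the GC box (GGGCGG), the CCAAT box (CCAAT) and the TATA box (TATAAA).
Cldn1, chr16:26371840-26371959, minus strand: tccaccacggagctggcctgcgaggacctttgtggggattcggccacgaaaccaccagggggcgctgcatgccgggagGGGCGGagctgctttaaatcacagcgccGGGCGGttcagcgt
Cldn2, chrX:139800688-139800807, plus strand: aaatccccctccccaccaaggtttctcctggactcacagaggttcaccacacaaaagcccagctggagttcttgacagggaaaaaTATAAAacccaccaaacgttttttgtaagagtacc
Cldn3, chr5:134986094-134986213, plus strand: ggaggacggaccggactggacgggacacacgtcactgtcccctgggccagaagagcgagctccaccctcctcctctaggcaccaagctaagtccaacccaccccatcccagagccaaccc
Cldn12, most upstream of 3 starts, chr5:5514977-5515096, minus strand: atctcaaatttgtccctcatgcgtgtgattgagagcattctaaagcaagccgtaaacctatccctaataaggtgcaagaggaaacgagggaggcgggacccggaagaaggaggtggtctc

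Cldn2 held a TATA box 35 bases before its start, a motif found in 12.4% of all 32851 windows of 250 bases before a start. Cldn1 had GC boxes 42 and 14 bases before its start. Cldn3 had one 236 bases before its start, outside the printed stretch. The other 2 starts of Cldn12 had a GC box, 13 and 73 bases before them, and a CCAAT box, 123 and 183 bases before them, each the same site counted from both starts. GC boxes occurred in 32.7% of all windows and CCAAT boxes in 33.8%. In the 250 bases before their starts, none of these 4 claudins had the Snail and Slug E-box, held by 17.2% of windows, or the clock E-box, held by 6.02%. These matches describe letters in the windows and say nothing of binding.

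Cldn2 was lower from 46 h onward than before. On the brighter of its 2 probe sets (1417231_at), the arrays from 12 to 44 h ranged from 13.90 to 14.18 and the 7 arrays from 46 to 58 h from 13.65 to 13.81. On the other (1417232_at), the same arrays ranged from 11.47 to 12.17 and from 11.15 to 11.42. The values of this probe set were highest at 40 and 42 h (12.04 and 12.17) and had come down to 11.68 by 44 h. Every array from 46 h onward was thus below every earlier one on both probe sets. This division of the arrays was made after the values were seen. A separation in this direction occurred in 3.52% of the probe sets that passed the filter, and one in the other direction in 4.92%.

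The change was tested over blocks of 4 consecutive arrays, which stand in for replicates although they are 2 h apart. On the brighter probe set the arrays at 36, 38, 40 and 42 h read 14.07, 14.07, 14.18 and 14.16. Those at 44, 46, 48 and 50 h read 14.09, 13.81, 13.69 and 13.77, so that only the 44 h array overlapped the earlier block. Cldn2 fell by 0.28 ± 0.07 (SE) between these blocks, a ratio of 1.21 (adjusted p = 0.0031).

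The dimmer probe set read 11.68, 11.76, 12.04 and 12.17 at 36 to 42 h and 11.68, 11.30, 11.25 and 11.15 at 44 to 50 h. The blocks did not overlap, although the values at 36 h and 44 h were nearly equal. It fell by 0.57 ± 0.11, a ratio of 1.48 (adjusted p = 0.000515). In these bulk samples, less RNA per cell and fewer cells with the RNA cannot be told apart. Of the 5 hepatocyte markers, Alb (-0.41), Ttr (-0.98) and Hnf4a (-0.39) fell and Rbp4 (0.25) rose between the same blocks. Among the bile duct markers Krt19 fell (-0.26). Krt7 (-0.29, adjusted p = 0.0586), Sox9 (0.16, 0.278) and Epcam (-0.01, 0.979) did not pass. The second Epcam probe set fell (-0.59, adjusted p = 0.0341). The part of these markers in the drop of Cldn2 was not tested. The Rbp4 call was lost without the 36, 38, 46 or 48 h array, with adjusted p up to 0.0816. With only the 8 arrays of these blocks fitted, Alb, Krt19 and Rbp4 did not pass (adjusted p = 0.0502, 0.0856 and 0.083).

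The blocks at 36 to 42 h and 44 to 50 h lie at different hours of a 24 h cycle. Blocks 24 h apart give the comparison at matched hours. From 28-34 h to 52-58 h the brighter Cldn2 probe set fell by 0.29 ± 0.07 (adjusted p = 0.00174) and the dimmer one by 0.44 ± 0.11 (adjusted p = 0.00391), and neither overlapped. Over these blocks 4 of 5 hepatocyte markers fell and 1 rose, beside 15.3% and 21.0% of all tested genes. Of the 4 bile duct markers, Krt19 (-0.29) and Epcam (-0.91) fell, Sox9 (0.32) rose and Krt7 did not pass (-0.25, adjusted p = 0.0976). The second Epcam probe set did not pass either (-0.46, adjusted p = 0.0906). The macrophage marker Cd68 fell (-0.94), while Csf1r differed by -0.01 (adjusted p = 0.977). The Sox9 call was lost with no filter (adjusted p = 0.073), with quantile normalization (0.0556) and with centred arrays (0.0544). The part of these markers was not tested. From 12-18 h to 36-42 h the differences were 0.08 (95% interval -0.05 to 0.22) and 0.17 (-0.06 to 0.40), and neither passed the test. The last comparison shares its later arrays with the one of adjacent blocks, but none with the one from 28-34 h to 52-58 h.

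A straight line with a 24 h cosine over all arrays gave Cldn2 changes of -0.21 (adjusted p = 0.0492) and -0.38 (adjusted p = 0.0449) over 46 h. These calls were thin. They were lost in 17 of the 24 fits that left out 1 array, for both probe sets, with the largest adjusted p of 0.122 and 0.0957 without the 58 h array. Fitted to the arrays from 12 to 42 h, the slopes were positive, 0.17 and 0.35 per 46 h, and did not pass the test (adjusted p = 0.18 and 0.164). The block calls of both probe sets, in contrast, held in all 24 such fits. With only the 8 arrays of the adjacent blocks fitted, the brighter probe set missed the threshold (adjusted p = 0.0554).

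Cldn12 moved the other way. On its brighter probe set (1433781_a_at) the arrays at 36, 38, 40 and 42 h read 10.51, 10.36, 10.33 and 10.17. Those at 44, 46, 48 and 50 h read 10.60, 10.79, 10.68 and 10.88, all above the earlier block. Cldn12 rose by 0.40 ± 0.08 between them, a ratio of 1.32 (adjusted p = 0.000411).

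The second Cldn12 probe set (1433782_at) read 10.52, 10.39, 9.89 and 10.36, then 10.61, 10.60, 10.47 and 10.73, and these blocks overlapped. It rose by 0.31 ± 0.10 (adjusted p = 0.0162). The low 40 h array carried part of this: without it the rise was 0.18 (adjusted p = 0.0746), without the 50 h array 0.27 (adjusted p = 0.0578), and with only the 8 arrays fitted the adjusted p was 0.128.

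At matched hours, from 28-34 h to 52-58 h, Cldn12 rose by 0.37 ± 0.08 (adjusted p = 0.000592) and 0.34 ± 0.10 (adjusted p = 0.00776), and the blocks did not overlap on either probe set. From 12-18 h to 36-42 h the differences were -0.19 (95% interval -0.35 to -0.03, adjusted p = 0.0713) and -0.17 (-0.37 to 0.03, adjusted p = 0.212). Without the 36 h array the first of these became a fall of 0.25 (adjusted p = 0.0221). The linear changes of 0.22 and 0.11 over 46 h did not pass the test over all arrays. On the brighter probe set the slope passed without the 42 h array (0.30, adjusted p = 0.0311), and over the arrays from 12 to 42 h it was negative (-0.44 per 46 h, adjusted p = 0.0194).

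Across the 24 arrays the Pearson correlation between the probe sets of Cldn2 and those of Cldn12 ran from -0.59 to -0.77, while the 2 of Cldn2 correlated at 0.938 and the 2 of Cldn12 at 0.757. These values describe arrays that share a time order and a common change after 42 h.

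**Figure D2:**
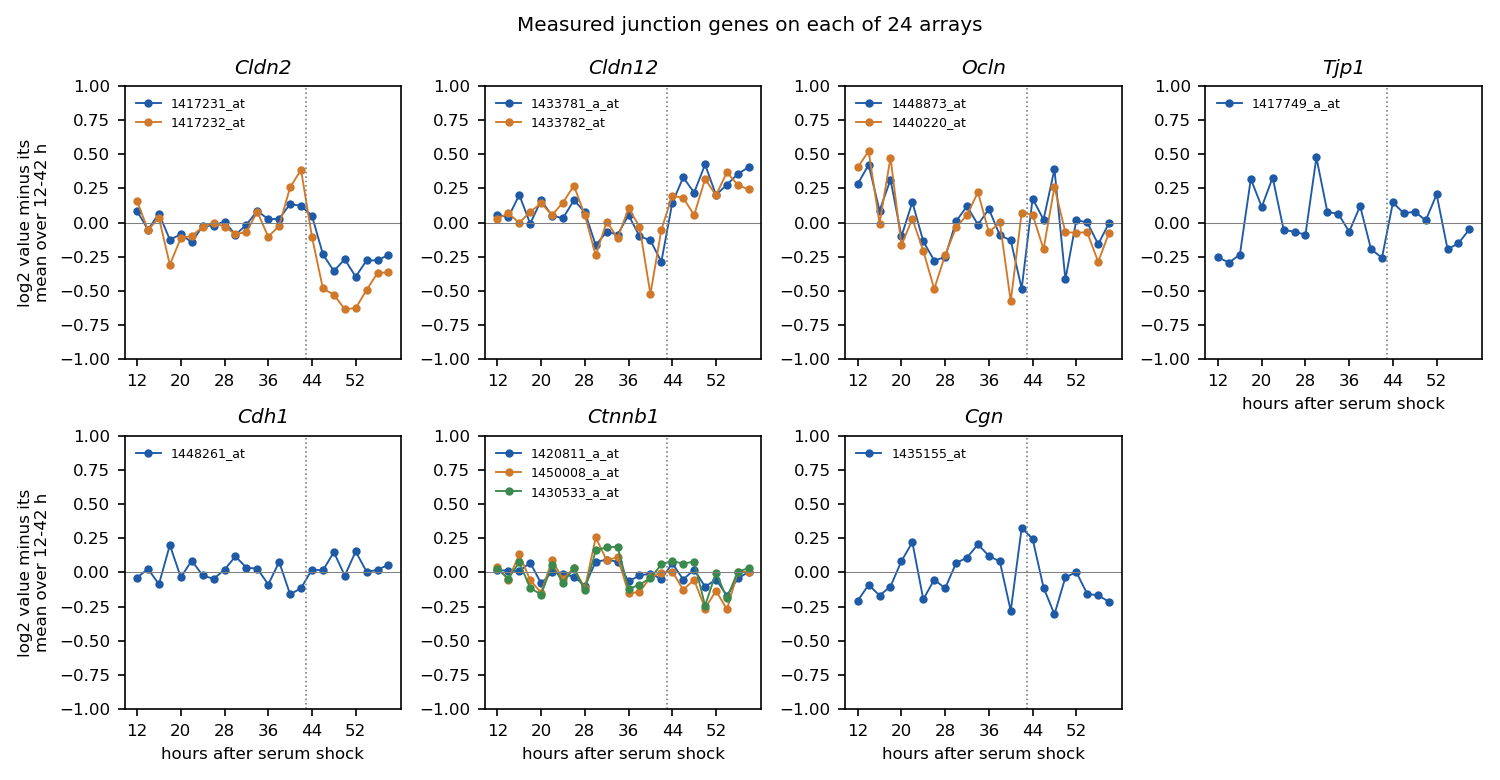
Time course of the 12 tested probe sets of 7 junction genes, as log2 value minus the probe set's mean over 12 to 42 h, against hours after serum shock, with a dotted line at 43 h. Cldn2 drops below its earlier values from 46 h, Cldn12 rises, Ocln has its highest block mean at 12 to 18 h (9.24 and 8.50) with a further high array at 48 h, and Cdh1 and Ctnnb1 stay close to 0.

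Ocln encodes occludin, the tetraspan protein of the tight junction strand, and its block mean was highest at 12-18 h on both probe sets. On the brighter probe set (1448873_at) the arrays at 12, 14, 16 and 18 h read 9.25, 9.39, 9.05 and 9.28, and those at 36, 38, 40 and 42 h read 9.07, 8.87, 8.84 and 8.48. Only the values at 16 h and 36 h overlapped. Outside these blocks the 48 h array, at 9.36, was as high as the early ones. Ocln fell by 0.43 ± 0.14 between these blocks at matched hours (adjusted p = 0.0265).

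The second probe set (1440220_at) read 8.56, 8.68, 8.15 and 8.63 and then 8.08, 8.16, 7.58 and 8.23, and fell by 0.49 ± 0.14 (adjusted p = 0.0152). The 16 h array lay within the later block, and the other 3 early arrays lay above it. Over the same blocks none of the 5 hepatocyte markers passed the test. Of the bile duct markers, Krt7 rose by 0.55 (adjusted p = 0.00114), and Krt19 (0.08) and Sox9 (-0.24) did not pass. Epcam fell by 0.90 (adjusted p = 0.00779), but its second probe set differed by -0.26 (adjusted p = 0.383). The macrophage marker Cd68 rose by 2.15 (adjusted p = 6.50e-06). Of the other macrophage markers, Csf1r differed by -0.20 (adjusted p = 0.14), and Ptprc and Adgre1 stayed near the lowest value. The part of these markers in the fall of Ocln was not tested.

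By 20-26 h the block means had already gone from 9.24 to 8.88 and from 8.50 to 7.95, a step not tested here. The fall was lost on the brighter probe set without the 12 h (adjusted p = 0.0558), 14 h (0.0843) or 42 h (0.111) array. With no filter on low values the brighter probe set lost it too (adjusted p = 0.0822). It was lost on the dimmer one without the 14 h (0.0562) or 40 h (0.0677) array, and on both with only the 8 arrays fitted (0.057 and 0.0842).

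From 36-42 h to 44-50 h the Ocln differences were 0.19 (95% interval -0.09 to 0.48) and 0.16 (-0.14 to 0.46), and from 28-34 h to 52-58 h they were near -0.001 (-0.29 to 0.29) and -0.13 (-0.43 to 0.17). None of these passed the test over all arrays. Without the 50 h array, which read 8.55, the first became a rise of 0.35 (adjusted p = 0.045). With 3 arrays a side, leaving out those at 36 h and 50 h, it was a rise of 0.43 (adjusted p = 0.0154). Over the arrays from 12 to 42 h the Ocln slopes were -0.82 (adjusted p = 0.00297) and -0.78 (adjusted p = 0.0472) per 46 h.

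Tjp1 encodes ZO-1, the scaffold under the tight junction, and Cgn encodes cingulin, which binds ZO-1 and actomyosin. Tjp1 (1417749_a_at) ranged from 13.34 at 14 h to 14.11 at 30 h, with a median of 13.62. Its arrays at 12, 14 and 16 h read 13.38, 13.34 and 13.40 and the next, at 18 h, read 13.95, so the early block held most of its range. The detected Cgn probe set (1435155_at) ranged from 8.46 at 48 h to 9.09 at 42 h, with a median of 8.69.

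Neither scaffold gene passed any of the tests over all arrays. From 36-42 h to 44-50 h Tjp1 differed by 0.18 (95% interval -0.09 to 0.45) and Cgn by -0.11 (-0.36 to 0.13). From 28-34 h to 52-58 h the differences were -0.18 (-0.45 to 0.09) for Tjp1 and -0.20 (-0.45 to 0.04) for Cgn. From 12-18 h to 36-42 h Cgn differed by 0.20 (-0.04 to 0.45), which passed the test without the 40 h array (0.32, adjusted p = 0.0441). For Tjp1 the interval between the adjacent blocks reaches past the rise of 0.40 measured for Cldn12.

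Cdh1, which encodes E-cadherin, varied little over the 46 h. Its values ran from 14.53 at 40 h to 14.89 at 18 h, with a median of 14.71 and an SD of 0.09 over 24 arrays. No contrast passed the test: the linear change was -0.01 (95% interval -0.14 to 0.13), the difference from 36-42 h to 44-50 h was 0.11 (-0.01 to 0.23), and that from 28-34 h to 52-58 h was 0.01 (-0.11 to 0.13). Without the 38 h array the difference of adjacent blocks was a rise of 0.16 (adjusted p = 0.0387).

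Ctnnb1, which encodes beta-catenin, passed no test over all arrays either. The brightest of its 3 probe sets (1420811_a_at) ranged from 14.87 at 54 h to 15.13 at 32 h, with a median of 15.02 and an SD of 0.07. The other 2 had SDs of 0.12. Among 244 probe sets with a mean within 0.5 of the brightest one, 9.43% had a lower SD. For the other 2 the shares were 41.7% and 29.4%, so their spread was not unusual for their level. Among 297 with a mean near that of Cdh1, 23.2% had a lower SD.

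Between 36-42 h and 44-50 h the 3 Ctnnb1 probe sets differed by 0.02 (95% interval -0.08 to 0.11), -0.03 (-0.19 to 0.13) and 0.04 (-0.12 to 0.21). From 28-34 h to 52-58 h they differed by -0.10 (-0.20 to -0.01), -0.18 (-0.34 to -0.02) and -0.14 (-0.30 to 0.03), with adjusted p from 0.069 to 0.185. The 28 h array read 14.94, below the 30 to 34 h arrays at 15.11, 15.13 and 15.12. Without it all 3 passed, as falls of 0.15, 0.25 and 0.22 (adjusted p = 0.0124, 0.0159 and 0.0348). From 12-18 h to 36-42 h the brightest probe set did not overlap, at 15.05 to 15.11 and then 14.97 to 15.03, a difference of -0.06 that did not pass (adjusted p = 0.326).

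Over the 24 arrays the correlation of Tjp1 with Cdh1 was 0.713, and the 3 Ctnnb1 probe sets correlated at 0.742 to 0.840 among themselves. The correlation of Cdh1 with the brightest Ctnnb1 probe set, whose proteins bind each other, was 0.336. With 24 arrays of 1 time course these are descriptions.

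**Figure D3:**
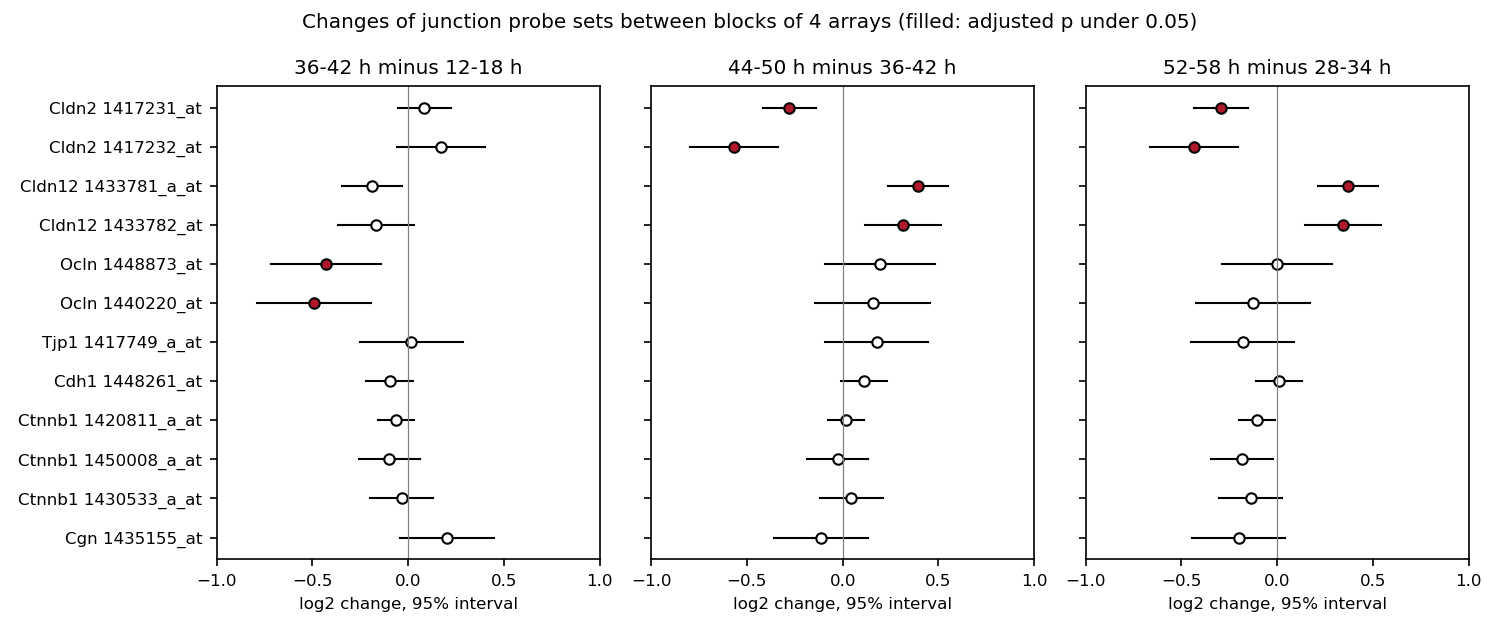
Log2 change of the 12 tested junction probe sets in 3 contrasts of 4 arrays against 4, with 95% intervals; filled points have an adjusted p under 0.05. Both Cldn2 probe sets lie below 0 and both Cldn12 probe sets above 0 from 36-42 h to 44-50 h and from 28-34 h to 52-58 h, and both Ocln probe sets lie below 0 from 12-18 h to 36-42 h.

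None of the 12 probe sets had a 24 h rhythm, against a background of 2.59% of the probe sets tested. Their fitted amplitudes, the height of the cosine above its mean, ran from 0.02 to 0.15 with a median of 0.07, beside 0.08 over all tested probe sets. The smallest adjusted p was 0.195, for the brighter Cldn2 probe set, the only one with an unadjusted p under 0.05. With the arrays from 12 to 18 h left out, both Cldn2 probe sets passed (amplitudes 0.15 and 0.24, adjusted p = 0.0188 and 0.0214), and the brighter one also passed with a quadratic time term (0.12, adjusted p = 0.0171). In the same refits the number of rhythmic probe sets over the whole array went from 479 to 2672 and 2064.

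Counted over the 12 probe sets, 2 rose and 2 fell from 36-42 h to 44-50 h, where 20.3% of all tested probe sets rose and 11.4% fell. From 28-34 h to 52-58 h again 2 rose and 2 fell, beside 20.4% and 14.0%. From 12-18 h to 36-42 h 0 rose and 2 fell, beside 12.4% and 12.6%, and over the 46 h 0 rose and 2 fell on the fitted line, beside 24.9% and 16.7%. With 12 probe sets of 7 genes, several of which share a gene, these counts are given as a description and no difference from the background was tested.

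Over all arrays, the 7 genes' changes were those of Cldn2, Cldn12 and Ocln only, except that with each array centred on its median 2 Ctnnb1 probe sets also fell from 28-34 h to 52-58 h (-0.14 and -0.22, adjusted p = 0.0448 and 0.0368) and 1 fell on the line (-0.23, adjusted p = 0.0465). Of the calls over all probe sets from 36-42 h to 44-50 h, 63.9% were rises, but 49.0% were after quantile normalization and 46.7% after centring. For the line over 46 h the shares were 59.9%, 47.9% and 48.0%. Neither scaling changed a call of adjacent blocks for the 12 probe sets.

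Blocks without overlap were counted in the same way. Between 36-42 h and 44-50 h 1 probe set was higher and 1 lower, beside 14.9% and 8.02% of all tested. Between 28-34 h and 52-58 h 2 were higher and 2 lower, beside 23.1% and 16.4%. Between 12-18 h and 36-42 h 0 were higher and 1 lower, beside 10.7% and 9.39%. Over the 12 probe sets the median change was 0.08 for the adjacent blocks, beside 0.05 over all tested, and -0.13 from 28-34 h to 52-58 h, beside 0.04.

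The genes whose course was most like that of Cldn2, among 9824 others and over 24 arrays, were the histone variant gene H2az2 (Pearson r = 0.947) and Uqcrfs1, a subunit of respiratory complex III (0.935). For Cldn12 they were the arginine methyltransferase gene Prmt1 (0.945) and Cct4, a chaperonin subunit (0.921). For Ocln they were the riboflavin kinase gene Rfk (0.896) and Cd55 (0.870), for Tjp1 Hivep2 (0.896) and Lrba (0.879), and for Cdh1 Herc2 (0.855) and Dennd5b (0.851). The closest were less alike for Cgn, at 0.830 (Slc44a3) and 0.752 (Osbpl3), and for Ctnnb1, at 0.731 (Slc44a1) and 0.713 (Eps8l2).

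Other tight junction genes moved in both directions. Of 21 that passed the filter of 41 on the array, 3 rose and 2 fell from 36-42 h to 44-50 h, where 20.5% of all tested genes rose and 12.7% fell. The median change was 0.08, beside 0.04 over all genes. Tjp3, which encodes ZO-3, a scaffold related to ZO-1, had block means of 9.58 ± 0.17 (SD, n = 4) and 8.82 ± 0.45 and fell by 0.76 (adjusted p = 0.00023). Pard3, a polarity scaffold, rose by 0.41 (adjusted p = 7.67e-05), and Ybx3, a Y-box factor that binds ZO-1, rose by 0.50 (adjusted p = 0.000683). On the line over 46 h 3 rose and 4 fell, beside 26.3% and 16.4%. Marveld2, tricellulin of the three-cell contacts, fell by 0.50 (adjusted p = 0.00147) and Sympk, symplekin, rose by 0.67 (adjusted p = 3.90e-05).

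Of 15 other adherens junction genes that passed, 2 rose and 3 fell between the adjacent blocks, beside 20.5% and 12.7% of all tested genes. Their median change was -0.10. The actin linkers Vcl (vinculin, -0.32, adjusted p = 0.0205) and Actn4 (alpha-actinin 4, -0.38, adjusted p = 0.00977) fell. Ctnna1, alpha-catenin, rose on 1 probe set (0.28, adjusted p = 0.0146), while its other probe set differed by 0.05 (adjusted p = 0.544). The second Vcl probe set differed by -0.28 (adjusted p = 0.105). The Vcl call was lost without the 46 h array (adjusted p = 0.0675), and the Ctnna1 call was lost with centred arrays (adjusted p = 0.0765).

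Over the 46 h 3 of these 15 genes rose and 2 fell, beside 26.3% and 16.4% of all tested genes. The nectins, adhesion proteins that act beside the cadherins, went apart: Nectin2 rose by 0.48 (adjusted p = 3.51e-06) and Nectin3 fell by 0.52 (adjusted p = 2.88e-05). All 3 Nectin3 probe sets fell, but the second of Nectin2 gave 0.11 (adjusted p = 0.339). Vezt, vezatin, rose by 0.81 (adjusted p = 2.55e-06), and its dimmer probe set, with a mean of 5.16, gave -0.23 (adjusted p = 0.305). Cdh2, which encodes N-cadherin, had a 24 h rhythm with an amplitude of 0.20 and a peak at 28.6 h (adjusted p = 0.0322), the only rhythmic gene of the list, against 2.77% of all tested genes. It is named after its values were seen, and its rhythm was not checked in the alternative fits.

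Among 8 desmosome genes, 2 rose and 1 fell between the adjacent blocks, beside 20.5% and 12.7% of all tested genes. Pkp1, plakophilin 1, had block means of 4.91 ± 0.11 and 5.86 ± 0.56 and rose by 0.95 (adjusted p = 0.000467), from a level near the filter. Perp rose by 0.21 (adjusted p = 0.00861), though not with centred arrays (adjusted p = 0.0738), and Ppl, periplakin, fell by 0.55 (adjusted p = 0.0113). On the line over 46 h 3 rose and 0 fell, beside 26.3% and 16.4%. Perp rose by 0.67 (adjusted p = 5.97e-07), and Evpl, envoplakin, rose by 0.76 (adjusted p = 0.0243). The Evpl call was lost without the 12 h (adjusted p = 0.0614) or 14 h (0.056) array, with no filter (0.0713) and with quantile normalization (0.071). Without the 4 arrays from 12 to 18 h the slope was 0.11 (adjusted p = 0.756).

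Of 4 gap junction genes that passed, 0 rose and 1 fell between the adjacent blocks, beside 20.5% and 12.7% of all tested genes. Gja1, which encodes connexin 43, fell by 0.45 (adjusted p = 0.00203), and all 5 of its probe sets fell. Gjb1, which encodes connexin 32, the main connexin of hepatocytes, differed by -0.22 (adjusted p = 0.413), and Gjc1 by -0.23 (adjusted p = 0.314). On the line over 46 h 1 rose and 1 fell, beside 26.3% and 16.4%. Panx1 rose by 0.33 (adjusted p = 0.0296), a call lost with quantile normalization (0.293) and with centred arrays (0.0798). Gja1 fell by 0.57 on its brightest probe set (adjusted p = 0.0071), though not every other probe set passed.

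**Figure D4:**
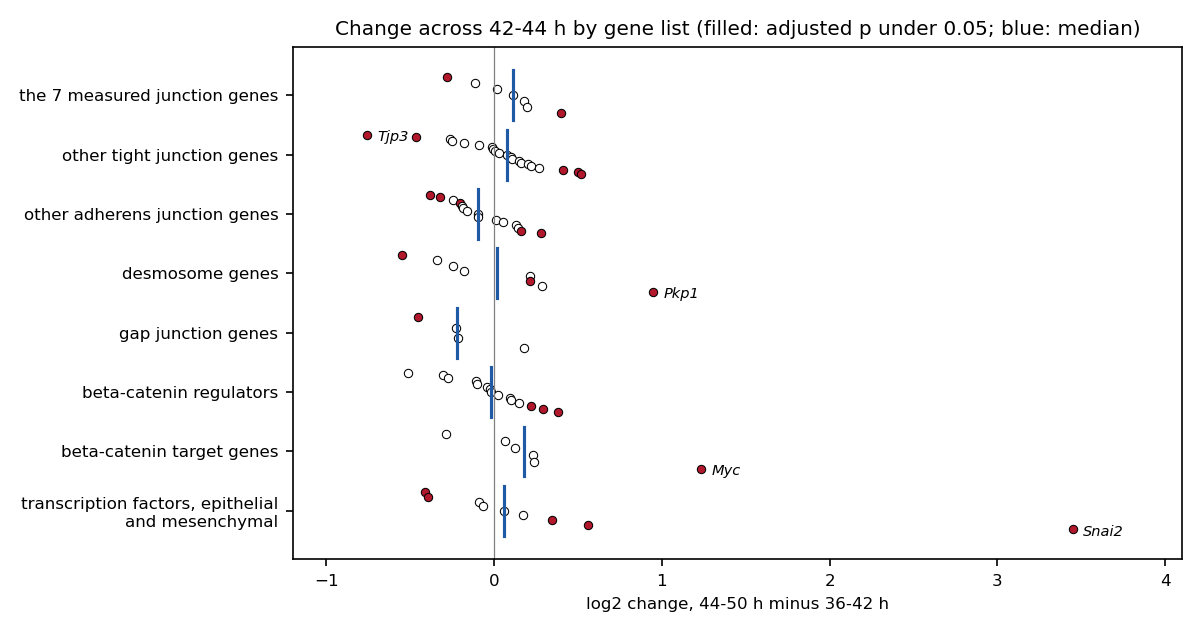
Log2 change from 36-42 h to 44-50 h of each tested gene, by list (points; filled, adjusted p under 0.05; blue bar, median of the list). Snai2 (3.45), Myc (1.23), Pkp1 (0.95) and Tjp3 (-0.76) are the labelled genes, and the list medians lie between -0.22 and 0.18.

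Of 15 regulators of beta-catenin in Wnt signalling that passed, 3 rose and 0 fell between the adjacent blocks, beside 20.5% and 12.7% of all tested genes, with a median of -0.02. Those that rose included 2 kinases that mark beta-catenin for destruction, Gsk3b at 0.38 (adjusted p = 0.00238) and Csnk1a1 at 0.22 (adjusted p = 0.00213). The related kinase gene Gsk3a differed by -0.28 (adjusted p = 0.0755) and is named after its values were seen. The third gene that rose was the receptor gene Fzd7 at 0.29 (adjusted p = 0.0465), a call lost without any of several single arrays, with an adjusted p of 0.122 without the 42 h array. On the line 2 rose and 3 fell, beside 26.3% and 16.4%. Those that fell included the DNA-binding partner Tcf7l2 (-0.61, adjusted p = 0.000324) and the co-repressor Tle1 (-0.39, adjusted p = 0.00932). The second Tle1 probe set gave -0.02 (adjusted p = 0.947).

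Of 14 beta-catenin target genes on the array 6 passed. Over 46 h 3 of them rose and 2 fell, beside 26.3% and 16.4% of all tested genes. Ccnd1, cyclin D1, rose by 0.68 (adjusted p = 1.73e-07) and Znrf3, a ligase that removes Wnt receptors, by 0.53 (adjusted p = 0.000699). Glul, glutamine synthetase of hepatocytes around the central vein, fell by 0.61 on its brighter probe set (adjusted p = 0.000539), while the other gave 0.06 (adjusted p = 0.619). Rnf43 fell by 0.44 (adjusted p = 0.00857). Between the adjacent blocks 20.5% of all tested genes rose and 12.7% fell. Of the target genes only Myc was called, with a rise of 1.23 (adjusted p = 6.32e-09). Many other signals control the genes of this list, so their counts are no measure of beta-catenin activity.

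Of 9 transcription factors of epithelial and mesenchymal state that passed, 3 rose and 2 fell between the adjacent blocks. Over all tested genes 20.5% rose and 12.7% fell. Snai2 encodes Slug, a zinc finger repressor known to bind E-boxes of junction genes. Its block means were 7.29, 7.29, 7.23 and 7.23 up to 42 h and 10.68 and 10.65 after it. It rose by 3.45 ± 0.18, a ratio of 10.9 (adjusted p = 1.82e-12), and its second probe set rose by 3.29 (adjusted p = 7.34e-11). Klf4, an epithelial factor, rose by 0.35 (adjusted p = 2.75e-05), whereas the epithelial factor Ehf fell by 0.41 (adjusted p = 0.0006), as did Hnf4a on 3 of its 4 probe sets. Zeb1, another repressor of Cdh1, rose by 0.52 on the line over 46 h (adjusted p = 1.76e-05).

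Over the same blocks in which Snai2 rose, Cdh1 differed by 0.11 (95% interval -0.01 to 0.23) and Ocln by 0.19 and 0.16. None of these passed the test over all arrays. Cdh1 did pass without the 38 h array, as a rise of 0.16. The brighter Ocln probe set passed without the 50 h array, as a rise of 0.35, and with 3 arrays a side (0.43). The Snail and Slug E-box stood at 2 places before the downstream of the 2 Ocln starts, 213 and 68 bases ahead of it. No other window of the 8 genes with one held this motif, and both sites are printed for that reason. Cdh1 was the gene without a window, so its start was not scanned. A link between Snai2 and these genes was not tested, and the motif matches say nothing of binding. Capitals mark the motif, and 17.2% of all windows hold at least 1.
Ocln site 213 bases before the start, chr13:100552694-100552723, minus strand: ccatcggagtttCAGGTGaatgggtcaccg
Ocln site 68 bases before the start, chr13:100552549-100552578, minus strand: ctaggggctcggCAGGTGggtcccagcgca

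Some of the linear changes named for these lists depended on the arrays after 42 h. Fitted to the arrays from 12 to 42 h, the slopes of Marveld2, Sympk, Nectin3, Gja1, Panx1, Znrf3 and Rnf43 no longer passed the test. The slope of Gja1, -0.57 over all arrays, was positive there (0.23 per 46 h, adjusted p = 0.299). That fit left 16 arrays, and the slope of Myc, 1.43 over all arrays, was negative in it (-0.57 per 46 h, adjusted p = 0.0132). The slopes of Tle1 and Panx1 did not pass without the arrays from 12 to 18 h (adjusted p = 0.0782 and 0.0764). With only the 8 arrays fitted, the changes of Actn4, Csnk1a1, Ctnna1 and Fzd7 between the adjacent blocks did not pass (adjusted p = 0.0905, 0.0532, 0.123 and 0.078).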

How the data were processed

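For 24 single-colour Affymetrix arrays the authors deposited log2 values of probe sets in 1 table. The submitters' processing notes name GCRMA, whose version and settings are not given in the sources used here. GCRMA corrects background by probe sequence, normalizes arrays together and summarizes probes, which piles low signals at a common floor. The values themselves gave the log2 scale. Of 45101 rows, 64 controls were left out. The platform annotation named 1 gene for 34958 probe sets, left 9211 unnamed and gave several genes for 932, which were not used, and 34754 matched RefSeq by Entrez ID, which changed 0 symbols. Other genes were represented by their probe set of highest mean.

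The 18526 probe sets with at least 5 in at least 6 arrays were fitted with limma 3.58.1 in R 4.3.3 (lmFit, eBayes with an intensity trend). One model held linear time with sine and cosine terms of period 24 h, and the other 6 blocks of 4 arrays that shared 1 estimate of the spread. Adjusted p-values are Benjamini-Hochberg over these probe sets, called under 0.05. The scripts were tested on simulated data. Precision is limited by the number of arrays. Named were all probe sets of the 9 genes, the 3 genes of smallest p per list and test, the cell type markers and the 2 most similar genes each. The genes and lists were chosen with earlier results of these data known. Promoter windows come from RefSeq on GRCm38.p6 and covered 8 of the 9 genes, all but Cdh1. Alternatives were another filter, scaling, variance prior, time terms and arrays left out.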

Additional observations from a re-analysis of the deposited data

How the results depend on the processing

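The 12 junction probe sets gave 372 values under 11 alternatives that did not leave out single arrays. Of these, 349 stayed on their side of the threshold, 10 gained a call, 10 lost one and 3 reversed. Values called neither in the main fit nor in the alternative were not compared for direction. The reversals were the linear changes of both Cldn2 probe sets (0.17 and 0.35) and of Cldn12 (-0.44) without the arrays from 44 to 58 h. The Cldn2 line also lost its call with no filter (adjusted p = 0.123) with a single prior variance (0.0637 and 0.0501) and, on the brighter probe set, with quantile normalization (0.135).

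Counts over all probe sets moved by more than 1.5 times in these cases. The 479 rhythmic probe sets became 198 with no filter, 2672 without 12 to 18 h, 1602 without 44 to 58 h and 2064 with a quadratic term, and 174 to 706 with 1 array left out. Linear rises went from 4604 to 2657 without 44 to 58 h. Falls from 36-42 h to 44-50 h went from 2121 to 3188 with centred arrays. With only the 8 arrays compared, that contrast gave 1892 rises, in place of 3755, and 1004 falls, and the one from 12-18 h to 36-42 h gave 1345 rises, in place of 2288, and 1040 falls, in place of 2333. With 1 array left out, rises and falls ranged over 4097 to 5326 and 2766 to 3437 on the line, 2764 to 3949 and 1617 to 2462 between the adjacent blocks, 1809 to 2534 and 1589 to 2554 from 12-18 h to 36-42 h, and 3166 to 4077 and 2159 to 2753 from 28-34 h to 52-58 h. The cause was not tested.

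The labels pair no arrays, and no fit that pairs arrays by hour of the cycle was run. Blocks of arrays 2 h apart hold real change over time as well as noise. Each block also shares its hours and its place in the series, so a change after 42 h cannot be told apart from a technical difference between early and late arrays. Low claudin values are upper limits only.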
